A study of Homo sapiens with 20 samples.

Results

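Surface antigens of plasma cells that are used or tested as targets in myeloma therapy, together with the receptor relatives of BCMA, were followed in the cell lines LP-1 and Raji under a BET inhibitor. The genes were set by a list of 10 symbols, each represented by the probe set that carries its symbol alone, and 9 of the 10 were measured, out of 14232 genes with such a probe set. Each of the 9 has 1 such probe set, so no choice between probe sets was needed. CD27 is not reported, because its probe set also carries the symbol of the antisense gene CD27-AS1.

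TNFRSF17 encodes BCMA, TNFRSF13B encodes TACI and TNFRSF13C encodes the BAFF receptor. These related receptors bind the cytokines BAFF and APRIL (the BAFF receptor binds BAFF alone) and act in B cells and plasma cells. SLAMF7 and LY9 (also called CD229) belong to the SLAM family of lymphocyte surface receptors, GPRC5D is an orphan G protein-coupled receptor, CD38 is an enzyme that consumes NAD, SDC1 is the heparan sulfate proteoglycan syndecan-1 (CD138), and FCRL5 is an Fc receptor-like protein. BCMA, SLAMF7, CD38 and GPRC5D are targets of antibody or T cell therapies, which need the antigen on the cell surface; the arrays measured RNA only. BET proteins read acetylated histones and help to drive transcription, and their inhibitors displace them from chromatin.

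LP-1, a multiple myeloma line, and Raji, a Burkitt lymphoma line, were each treated with 500 nM BET inhibitor or the same dose of its inactive enantiomer for 4 or 8 h, or sampled untreated at 0 h. The labels do not name the compound. Each of these 10 groups has 2 arrays, described as biological replicates, and each line is 1 line, so differences between them are between these lines and not between diseases. In bulk RNA, fewer cells that express a gene and less RNA per cell cannot be told apart. Values are log2 expression, each change is given on the log2 scale ± its standard error from a model of all 20 arrays, and a gene passed at an adjusted p under 0.05 over 22011 probe sets.

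B cell and plasma cell markers differed between the lines mostly in the direction of their labels, which does not identify the lines themselves. Of 8 measured B cell markers 7 were higher in untreated Raji than in untreated LP-1 and 1, FCER2, did not pass, and all 7 measured plasma cell markers were lower in Raji. In the longer list of plasma cell regulators and secretory markers, which holds these 7, 9 of 15 measured genes were lower in Raji, 4 were higher and 2 did not pass. MYC fell and HEXIM1, a common marker of BET inhibition, rose with the inhibitor at 4 and 8 h in LP-1 and in Raji (adjusted p from 5.25e-05 to 0.00269). Array medians lay between 5.13 and 5.39, and BET inhibitor replicate 1 in LP-1 at 4 h and inactive replicate 1 in Raji at 4 h had the lowest 75th percentile of their line (6.80 and 6.75, against 7.03 and 6.85 on their replicates). Markers of T and NK cells averaged 3.76 to 3.97 in LP-1 arrays and 3.58 to 3.83 in Raji arrays, and 1 of 15, TRAT1, passed in LP-1 and none in Raji. Those of myeloid cells (8 measured), epithelial cells and fibroblasts (11) and erythroid cells (3) averaged 3.50 to 4.46, and none of them passed. The part of RNA from T or NK cells in the results below was not tested.

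The first comparison asked how the untreated lines differ in these genes. Of the 9 genes, 5 were lower and 1 was higher in Raji (17.5% and 6.79% of all probe sets were called lower and higher, 24.3% in either direction). Of the calls over all probe sets 28.0% were higher in Raji as deposited, 45.8% after quantile normalization and 41.2% with centred arrays, settings in which the 6 genes kept their calls and directions. The 9 genes had a median difference of -1.41, against -0.026 over all probe sets. TNFRSF17 stood at 4.76 and 4.79 in untreated Raji, against 9.33 and 9.38 in untreated LP-1, a difference of -4.58 ± 0.32 (adjusted p = 2.17e-07). GPRC5D stood at 4.32 and 4.41 in Raji and at 8.51 and 8.53 in LP-1 (-4.16 ± 0.22, adjusted p = 1.65e-08). For both genes the lines lay far apart. SLAMF7 gave 5.04 and 4.45 in Raji, against 7.78 and 7.95 in LP-1 (-3.12 ± 0.18, adjusted p = 3.22e-08).

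TNFRSF13B was lower in untreated Raji by a smaller amount, with 6.59 and 6.99 in Raji and 8.26 and 8.17 in LP-1 (-1.43 ± 0.27, adjusted p = 0.00121). SDC1 measured 5.03 and 5.16 in Raji and 5.99 and 7.01 in LP-1 (-1.41 ± 0.27, adjusted p = 0.00161). The size of the SDC1 difference rested on 1 array, since it was -0.90 without untreated LP-1 replicate 2 (adjusted p = 0.0175). CD38 was the gene that was higher in Raji, with 8.93 and 8.91 against 8.31 and 8.42 in LP-1 (0.55 ± 0.16, adjusted p = 0.024), and its call was lost without any 1 of these 4 arrays (adjusted p from 0.066 to 0.131). TNFRSF13C measured 5.43 and 5.83 in Raji and 4.63 and 4.44 in LP-1, arrays that did not overlap, but the difference of 1.10 ± 0.42 did not pass (adjusted p = 0.081). LY9 (-0.26 ± 0.14) and FCRL5 (-0.06 ± 0.12) did not pass either, and FCRL5 stayed between 2.69 and 3.09 on all 20 arrays, between percentiles 11.0 and 16.5 of the probe sets on an array.

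**Figure D1:**
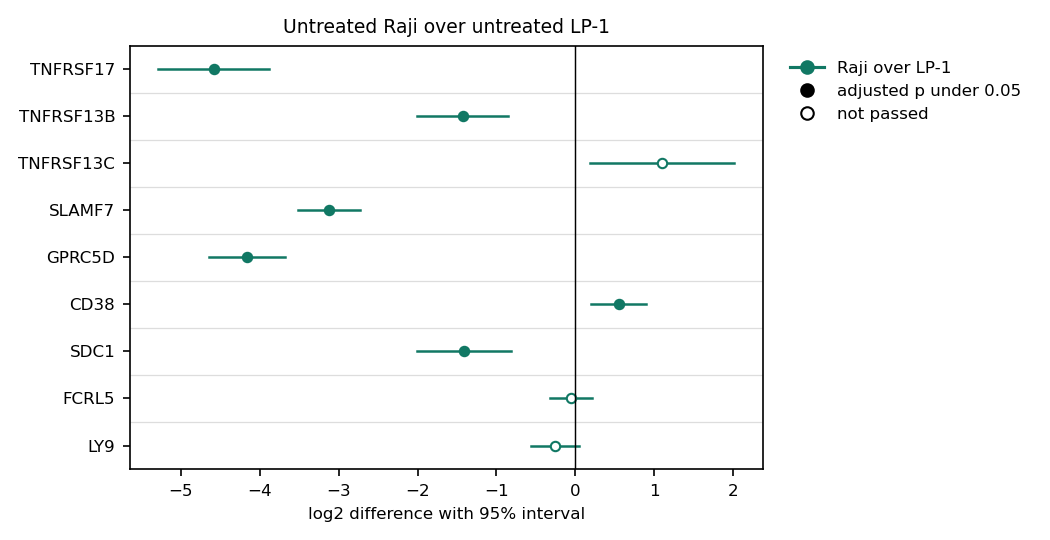
Untreated Raji over untreated LP-1 (n = 2 arrays each): points are log2 differences, bars 95% intervals, filled points passed at an adjusted p under 0.05. TNFRSF17, GPRC5D and SLAMF7 lie at -4.58, -4.16 and -3.12, and CD38 lies at 0.55.

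The main question was which of these genes respond to BET inhibition itself, taken as BET inhibitor over inactive enantiomer at matched dose and hours. In LP-1 at 4 h 2 of 9 genes were lower and none was higher (2.28% of all probe sets were called, 1.90% lower, 0.377% higher). At 8 h in LP-1 4 were lower and none was higher (5.73% called, 1.97% lower, 3.76% higher). Raji at 4 h had 1 lower and none higher (1.78% called, 0.341% lower, 1.44% higher), and Raji at 8 h had 2 lower and 1 higher (1.88% called, 1.05% lower, 0.827% higher). Over all probe sets the share of calls that were higher depended on scaling in LP-1 at 4 h (16.5%, 33.0% after quantile normalization), in LP-1 at 8 h (65.6%, 53.9% after quantile normalization and 49.9% with centred arrays) and in Raji at 4 h (80.8%, 61.2% after quantile normalization). The medians of the 9 changes were -0.21 and -0.43 in LP-1 and -0.23 and -0.054 in Raji at 4 and 8 h, against -0.037, 0.064, 0.011 and -0.000695 over all probe sets. The called genes were TNFRSF17, TNFRSF13B, SLAMF7 and GPRC5D, while TNFRSF13C, CD38, SDC1, FCRL5 and LY9 passed in none of the 4 comparisons.

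**Figure D2:**
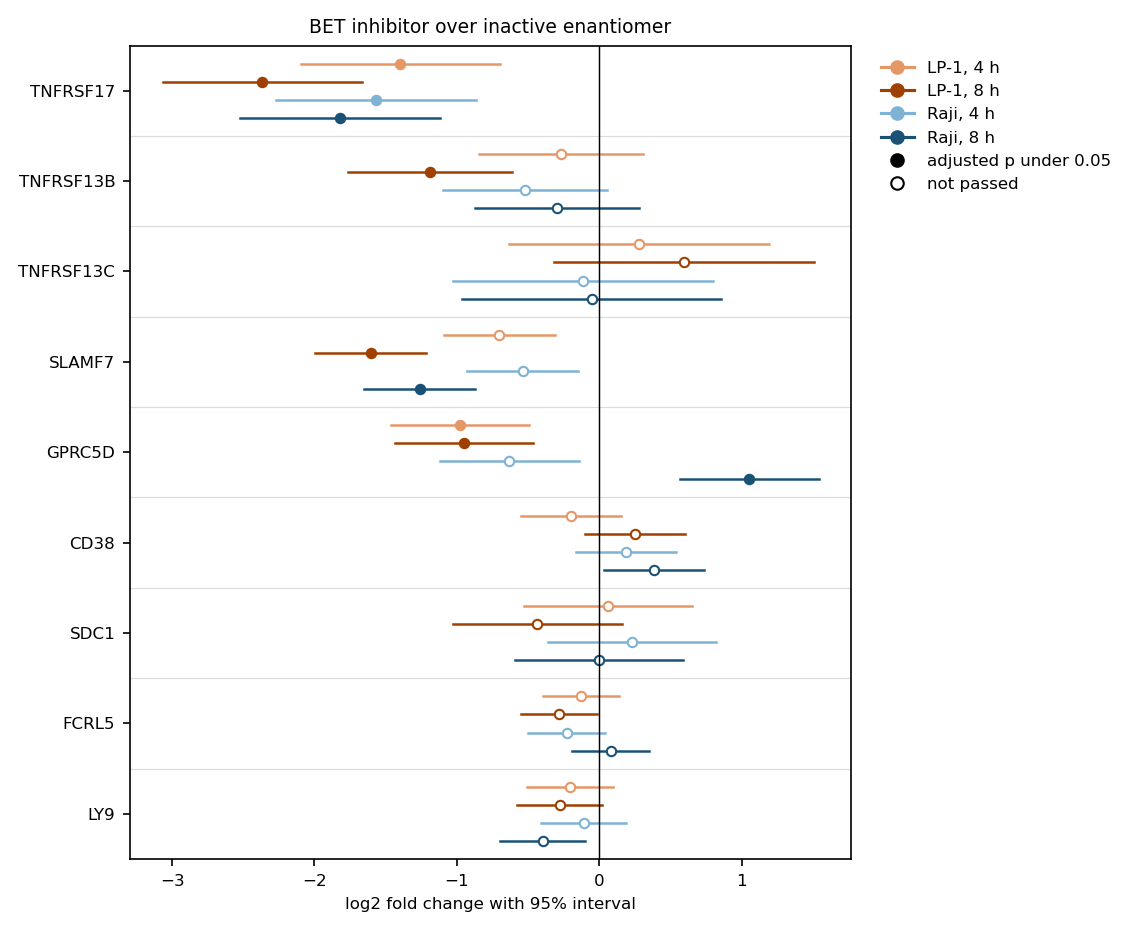
BET inhibitor over inactive enantiomer for 9 surface target genes: points are log2 fold changes, bars 95% intervals (n = 2 arrays per group), filled points passed at an adjusted p under 0.05. TNFRSF17 lies below 0 in all 4 comparisons, from -2.37 to -1.40, and GPRC5D lies at -0.95 in LP-1 and at 1.06 in Raji at 8 h.

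TNFRSF17 was the gene that passed in all 4 comparisons. In LP-1 at 4 h it measured 7.53 and 7.77 with the inhibitor and 9.08 and 9.02 with the inactive enantiomer (-1.40 ± 0.32, adjusted p = 0.0428). By 8 h the inhibitor arrays stood at 6.52 and 6.44, against 8.71 and 8.97 with the inactive form (-2.37 ± 0.32, 5.16-fold, adjusted p = 0.00142). The inhibitor arrays lay below every other LP-1 array at both times. The 8 h call held without each array in turn (highest adjusted p 0.0179). The 4 h call did not, with adjusted p = 0.216 and 0.0609 without BET inhibitor replicates 1 and 2 and 0.245 and 0.216 without inactive replicates 1 and 2. Quantile normalization (-1.23, adjusted p = 0.0852) and centring of the arrays (-1.33, adjusted p = 0.0539) ended it too.

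In Raji TNFRSF17 started low and fell further. At 4 h it measured 2.54 and 3.50 with the inhibitor and 4.14 and 5.04 with the inactive form (-1.57 ± 0.32, adjusted p = 0.0316). At 8 h the values were 2.69 and 3.25 with the inhibitor, against 5.06 and 4.53 (-1.82 ± 0.32, 3.53-fold, adjusted p = 0.0154). Inhibitor and inactive arrays did not overlap at either time, but the replicates lay well apart. The 4 h call was lost without BET inhibitor replicate 1 (adjusted p = 0.182) and without inactive replicate 2 (0.165), and the 8 h call without BET inhibitor replicate 1 (0.12) and inactive replicate 1 (0.0971). With Raji fitted alone neither passed (adjusted p = 0.15 and 0.116). Over all Raji arrays the gene ranked between percentiles 11.0 and 47.1 of the probe sets, and no test against background was made, so the size of a change at this level is uncertain.

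The response of TNFRSF17 was not shown to differ between the lines. Raji minus LP-1 was -0.17 (95% interval -1.16 to 0.82) at 4 h and 0.55 (-0.44 to 1.54) at 8 h, and both intervals include 0. In LP-1 the response at 8 h minus that at 4 h was -0.97 ± 0.46 (adjusted p = 0.392). The inactive enantiomer over untreated cells gave -0.31 ± 0.32 and -0.51 ± 0.32 in LP-1 and -0.18 ± 0.32 and 0.020 ± 0.32 in Raji at 4 and 8 h, and none of these passed. None of the 9 genes passed in any comparison of the inactive form with untreated cells by limma. Of all probe sets 0.0136% (0.00909% higher, 0.00454% lower) were called in LP-1 at 4 h, 0.504% (0.0454% higher, 0.459% lower) at 8 h and none in Raji. At an unadjusted limma p under 0.05 there were 1, 1, 0 and 1 of the 9. The share of all probe sets at that unadjusted threshold was not counted, so no excess is read from these counts. These comparisons share the inactive arrays with the central ones and join compound with time in culture.

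TNFRSF13B, which encodes TACI, a receptor that restrains B cell numbers and promotes class switching, passed in LP-1 at 8 h. It measured 7.08 and 6.83 with the inhibitor, against 7.99 and 8.30 with the inactive form (-1.19 ± 0.27, 2.28-fold, adjusted p = 0.0215). At 4 h in LP-1 the values were 7.74 and 7.95 with the inhibitor and 8.06 and 8.17 without (-0.27 ± 0.27, adjusted p = 0.723). The 8 h call was lost without BET inhibitor replicate 1 or 2 (adjusted p = 0.0673 and 0.0996) and without inactive replicate 1 or 2 (0.0608 and 0.133), and it held in all 6 other settings tried. In Raji the changes were -0.52 ± 0.27 and -0.30 ± 0.27 at 4 and 8 h (adjusted p = 0.417 and 0.756). The response at 8 h of Raji minus LP-1 was 0.89 (95% interval 0.08 to 1.71), which did not pass (adjusted p = 0.499).

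TNFRSF13C, the BAFF receptor of mature B cells, had the widest scatter of the 9 genes. In LP-1 at 8 h it measured 4.47 and 5.05 with the inhibitor and 4.84 and 3.49 with the inactive form, which overlapped. Its changes were 0.28 and 0.59 in LP-1 and -0.11 and -0.054 in Raji at 4 and 8 h, each ± 0.42, and none passed. The 95% intervals ran from -0.63 to 1.51 in LP-1 and from -1.02 to 0.86 in Raji over both times. The family comprised 1 receptor called in both lines, 1 called in LP-1 and 1 called in neither; the differences between the receptors were not tested.

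**Figure D3:**
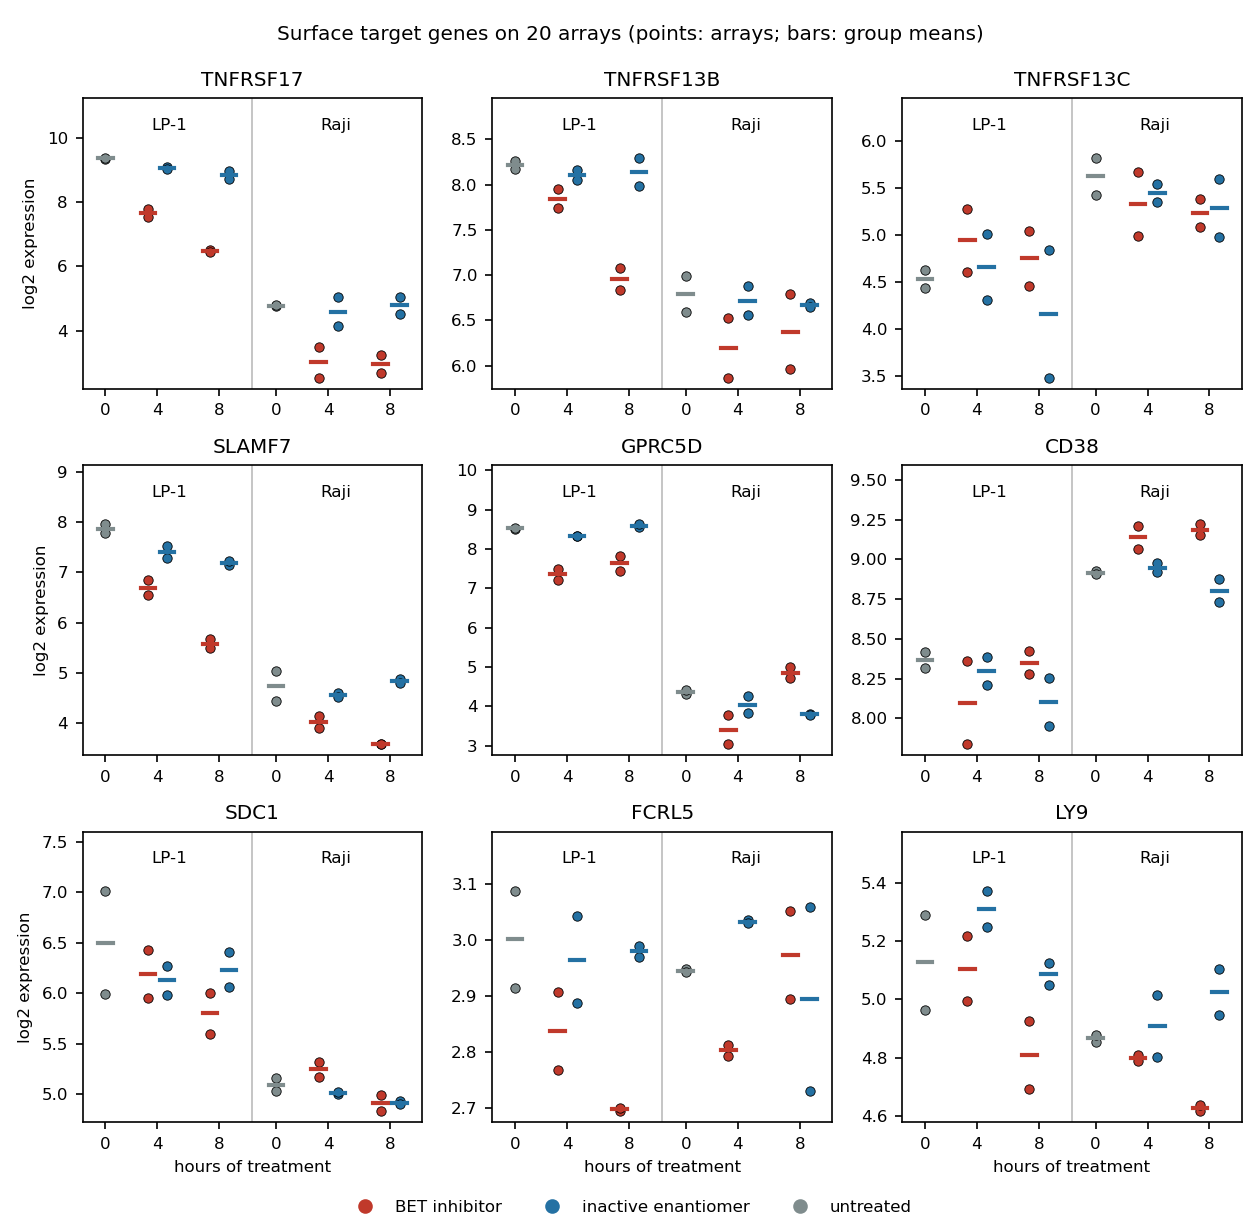
Log2 expression of the 9 genes on every array (points) with group means (bars), by hours of treatment, LP-1 left and Raji right in each panel, each panel with its own scale. TNFRSF17 and SLAMF7 show inhibitor arrays below inactive arrays in both lines, and GPRC5D shows them below in LP-1 and above in Raji at 8 h.

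SLAMF7, a receptor that binds itself on neighbouring cells and is the target of an antibody used in myeloma, passed at 8 h in both lines. In LP-1 at 8 h it measured 5.68 and 5.49 with the inhibitor, against 7.15 and 7.22 with the inactive form (-1.60 ± 0.18, 3.04-fold, adjusted p = 0.000313). In Raji at 8 h it measured 3.58 and 3.59 with the inhibitor, against 4.88 and 4.81 (-1.26 ± 0.18, 2.39-fold, adjusted p = 0.0053). Both calls held without each array in turn (highest adjusted p 0.00513 in LP-1 and 0.0482 in Raji), and that in Raji was lost with Raji fitted alone (adjusted p = 0.0542). At 4 h the values were 6.55 and 6.84 against 7.28 and 7.52 in LP-1 and 3.91 and 4.14 against 4.61 and 4.52 in Raji, arrays that did not overlap. SLAMF7 ranked between percentiles 22.6 and 45.9 of the probe sets over all Raji arrays, and no test against background was made. The size of its change in Raji is therefore uncertain.

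These 4 h differences of SLAMF7 did not pass (-0.70 ± 0.18 in LP-1, adjusted p = 0.0668, and -0.54 ± 0.18 in Raji, adjusted p = 0.174). That in LP-1 passed with the 7337 dimmest probe sets left out (adjusted p = 0.0395) and without BET inhibitor replicate 2 (0.0492). The 8 h response minus the 4 h response was -0.90 ± 0.25 in LP-1 and -0.72 ± 0.25 in Raji, neither of which passed (adjusted p = 0.161 and 0.759). Raji minus LP-1 was 0.16 (95% interval -0.39 to 0.72) at 4 h and 0.35 (-0.21 to 0.90) at 8 h. In LP-1 the inactive form over untreated gave -0.47 ± 0.18 and -0.68 ± 0.18 at 4 and 8 h (adjusted p = 0.926 and 0.112), with both inactive groups below the untreated arrays, so untreated LP-1 held the highest SLAMF7 values of the series.

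LY9 lies beside SLAMF7 in the order of coding genes and did not pass. It measured 4.69 and 4.93 in LP-1 at 8 h with the inhibitor and 5.05 and 5.13 with the inactive form (-0.28 ± 0.14, adjusted p = 0.307). In Raji at 8 h it measured 4.62 and 4.64 with the inhibitor, against 5.10 and 4.95 (-0.40 ± 0.14, adjusted p = 0.204). The other changes were -0.21 ± 0.14 in LP-1 and -0.11 ± 0.14 in Raji at 4 h, and the 95% intervals in the 4 comparisons reached no lower than -0.70.

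SLAMF6, CD84, SLAMF1, CD48, SLAMF7, LY9 and CD244 follow each other on chromosome 1, with 1 further coding gene between CD48 and SLAMF7. The list of the SLAM family and its adaptors was counted without SLAMF7 and LY9. Of its 11 measured genes, none passed in LP-1 at 4 h, 1 was lower at 8 h, 2 were lower in Raji at 4 h and 4 at 8 h, and none was higher. Their medians were 0.031, 0.067, -0.33 and -0.38 in that order. CD48, a partner of other SLAM receptors, stood at 8.04 and 7.91 with the inhibitor and 9.44 and 9.54 with the inactive form in LP-1 at 8 h (-1.51 ± 0.19, adjusted p = 0.000703). In Raji CD48 fell by 1.06 and 1.03 at 4 and 8 h (adjusted p = 0.0147 and 0.0169) and SLAMF1, a receptor that binds itself, by 1.06 and 1.16 (adjusted p = 0.04 and 0.0265). CD84 fell in Raji at 8 h by 1.29 ± 0.21 (adjusted p = 0.00992), and the phosphatase gene PTPN6 by 0.71 ± 0.12 (adjusted p = 0.0119).

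In LP-1 the changes of SLAMF6, CD84, SLAMF1 and CD244 lay between -0.080 and 0.24 and did not pass at either time. Without each array in turn the call of CD48 in LP-1 held, with changes from -1.58 to -1.45. Each of the Raji calls of CD48, SLAMF1, CD84 and PTPN6 held in at most 1 of 4 such fits. The Raji changes there ranged from -1.43 to -0.69 for CD48 and from -1.34 to -0.83 for SLAMF1. They ranged from -1.48 to -1.11 for CD84 and from -0.79 to -0.63 for PTPN6. With Raji fitted alone the calls of CD48 at 4 and 8 h (adjusted p = 0.101 and 0.116) and of PTPN6 (0.0721) were lost. Both calls of SLAMF1 were lost in that setting too, and the call of CD84 held. The change of CD48 in Raji at 4 h was -0.69 without inactive replicate 2 (adjusted p = 0.0534).

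**Figure D4:**
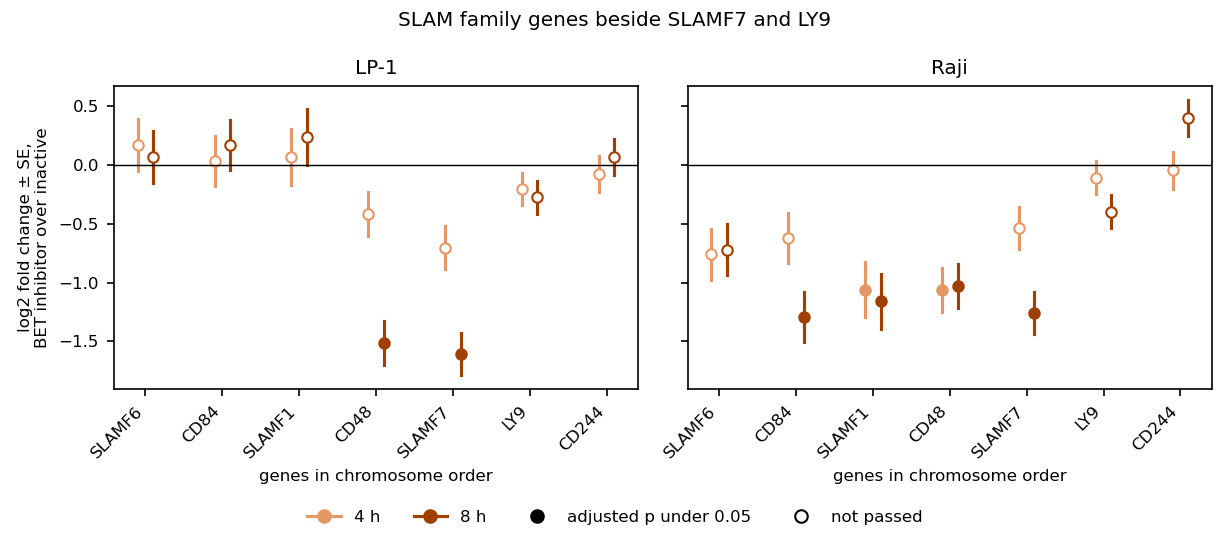
SLAM family genes in chromosome order (spacing not to scale): log2 fold change of BET inhibitor over inactive enantiomer ± SE (n = 2 arrays per group), filled where the adjusted p was under 0.05. In LP-1 CD48 and SLAMF7 lie at -1.51 and -1.60 at 8 h, and in Raji CD84, SLAMF1, CD48 and SLAMF7 lie between -1.29 and -1.03 at 8 h.

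GPRC5D went opposite ways in the lines at 8 h. In LP-1 it measured 7.83 and 7.44 with the inhibitor and 8.55 and 8.62 with the inactive form (-0.95 ± 0.22, 1.93-fold, adjusted p = 0.0268). In Raji at 8 h it measured 4.72 and 4.99 with the inhibitor, against 3.82 and 3.79 (1.06 ± 0.22, 2.08-fold, adjusted p = 0.033). The groups did not overlap in either line. Raji minus LP-1 was 2.01 ± 0.32 at 8 h (adjusted p = 0.0242), the 1 such difference to pass among the 9 genes at either time (0.245% of all probe sets were called at 8 h, 0.0909% higher and 0.154% lower, and 0.114% at 4 h, 0.109% higher and 0.00454% lower).

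At 4 h GPRC5D was lower in LP-1, with 7.22 and 7.49 for the inhibitor and 8.32 and 8.34 for the inactive form (-0.98 ± 0.22, adjusted p = 0.0417). In Raji at 4 h it measured 3.03 and 3.78 with the inhibitor and 4.26 and 3.82 with the inactive form, a difference of -0.63 ± 0.22 that did not pass (adjusted p = 0.205). The response in Raji at 8 h minus that at 4 h was 1.69 ± 0.32 (unadjusted p = 0.000153 by limma, adjusted p = 0.177), and by limma no probe set passed in that comparison. Untreated Raji stood at 4.32 and 4.41, above the inactive arrays at both times (-0.33 ± 0.22 at 4 h and -0.56 ± 0.22 at 8 h for the inactive form over untreated, adjusted p = 0.779 and 0.996). Over all Raji arrays GPRC5D ranked between percentiles 16.1 and 46.3 of the probe sets, without a test against background.

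The calls of GPRC5D rested on few arrays. In LP-1 at 4 h the call was lost without BET inhibitor replicate 1 (adjusted p = 0.237) and without inactive replicate 1 or 2 (0.215 and 0.235), after quantile normalization (-0.78, adjusted p = 0.119), with centred arrays (-0.91, adjusted p = 0.0692) and with LP-1 fitted alone (0.064). In LP-1 at 8 h it was lost without BET inhibitor replicate 2 (0.144) and inactive replicate 1 or 2 (0.1 and 0.121). In Raji at 8 h it was lost without any 1 of BET inhibitor replicates 1 and 2 (adjusted p = 0.093 and 0.228) and inactive replicates 1 and 2 (0.118 and 0.164), and with Raji fitted alone (0.139). The difference between lines was lost without LP-1 inactive replicate 1 or 2 (0.0718 and 0.092), Raji BET inhibitor replicate 1 or 2 (0.0566 and 0.11) and Raji inactive replicate 1 or 2 (0.0761 and 0.0806), with values from 1.81 to 2.21 over all 8 such fits.

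Promoter sequences from RefSeq (GRCh38.p14) matched 6 of the 10 listed genes. The 250 bases before the annotated start are shown for GPRC5D, whose response differed between the lines, for TNFRSF13B, called in LP-1, and for CD38, called in neither, each 5′ to 3′ on the gene's strand. Capitals mark matches to the letters searched on both strands: CACGTG (an E-box that MYC can bind), ATGCAAAT (the octamer of B cell factors), a pair of GAAA half-sites of interferon regulatory factors with any 2 bases between them and TATAAA. Of 35114 promoter windows of the same length in the table, 6.35%, 1.63%, 3.02% and 10.7% held these.
GPRC5D (chr12:12952171-12952420, minus strand) is the first sequence.
GPRC5D: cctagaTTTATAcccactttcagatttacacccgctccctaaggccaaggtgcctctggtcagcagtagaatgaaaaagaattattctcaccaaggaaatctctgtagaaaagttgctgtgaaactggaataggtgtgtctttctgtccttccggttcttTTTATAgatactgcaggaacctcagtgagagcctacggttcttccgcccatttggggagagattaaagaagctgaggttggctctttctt
TNFRSF13B (chr17:16972119-16972368, minus strand) is the next.
TNFRSF13B: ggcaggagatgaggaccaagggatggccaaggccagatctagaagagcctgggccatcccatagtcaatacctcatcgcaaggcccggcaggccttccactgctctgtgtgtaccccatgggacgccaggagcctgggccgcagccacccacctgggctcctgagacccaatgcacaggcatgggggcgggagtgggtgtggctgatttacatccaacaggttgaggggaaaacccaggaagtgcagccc
CD38 (chr4:15778078-15778327, plus strand) is the last.
CD38: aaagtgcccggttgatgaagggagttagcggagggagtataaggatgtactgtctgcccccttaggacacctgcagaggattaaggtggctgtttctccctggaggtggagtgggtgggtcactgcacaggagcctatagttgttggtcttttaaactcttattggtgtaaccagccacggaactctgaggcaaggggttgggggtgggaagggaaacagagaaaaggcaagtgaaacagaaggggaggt
The GPRC5D window held TATAAA on the opposite strand 2 times, starting 244 and 90 bases before the start, and the windows of TNFRSF13B and CD38 held none of the letters searched. The windows had 44.4%, 62% and 52.4% G and C bases. A match is a string of letters only, and no binding was measured.

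CD38, CD138 (SDC1) and FCRL5 did not pass with the inhibitor. CD38 measured 8.42 and 8.28 in LP-1 at 8 h with the inhibitor, against 7.95 and 8.25 with the inactive form (0.25, 95% interval -0.10 to 0.60), and -0.20 (-0.55 to 0.15) was its change at 4 h. In Raji CD38 measured 9.21 and 9.07 at 4 h with the inhibitor, against 8.92 and 8.98. At 8 h in Raji it measured 9.22 and 9.15, against 8.73 and 8.87 (0.38 ± 0.16, 95% interval 0.03 to 0.73, adjusted p = 0.322). The inhibitor arrays were the highest Raji arrays for CD38 at both times, and the intervals leave out a fall of the size seen for TNFRSF17 in either line.

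SDC1 measured 6.004 and 5.595 in LP-1 at 8 h with the inhibitor and 6.06 and 6.41 with the inactive form (-0.43 ± 0.27, 95% interval -1.03 to 0.16). Its other changes were 0.063 ± 0.27 in LP-1 at 4 h and 0.23 ± 0.27 and -0.0029 ± 0.27 in Raji at 4 and 8 h. FCRL5 measured 2.69 and 2.70 in LP-1 at 8 h with the inhibitor, against 2.99 and 2.97 (-0.28 ± 0.12, adjusted p = 0.239), and its other changes lay between -0.23 and 0.079. At its low level a fall of FCRL5 might not be seen. Of the 10 measured Fc receptor-like and GPRC5 relatives, none passed in LP-1, and 1, FCRL3, was lower in Raji at both times (-0.80 ± 0.14 and -0.91 ± 0.14, adjusted p = 0.0138 and 0.00713), calls that were lost without 3 and 2 of the 4 arrays compared (highest adjusted p 0.114 and 0.0601). GPRC5A, the coding gene next to GPRC5D, gave -0.17 and 0.10 in LP-1, 0.086 and -0.40 in Raji, and did not pass.

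**Figure D5:**
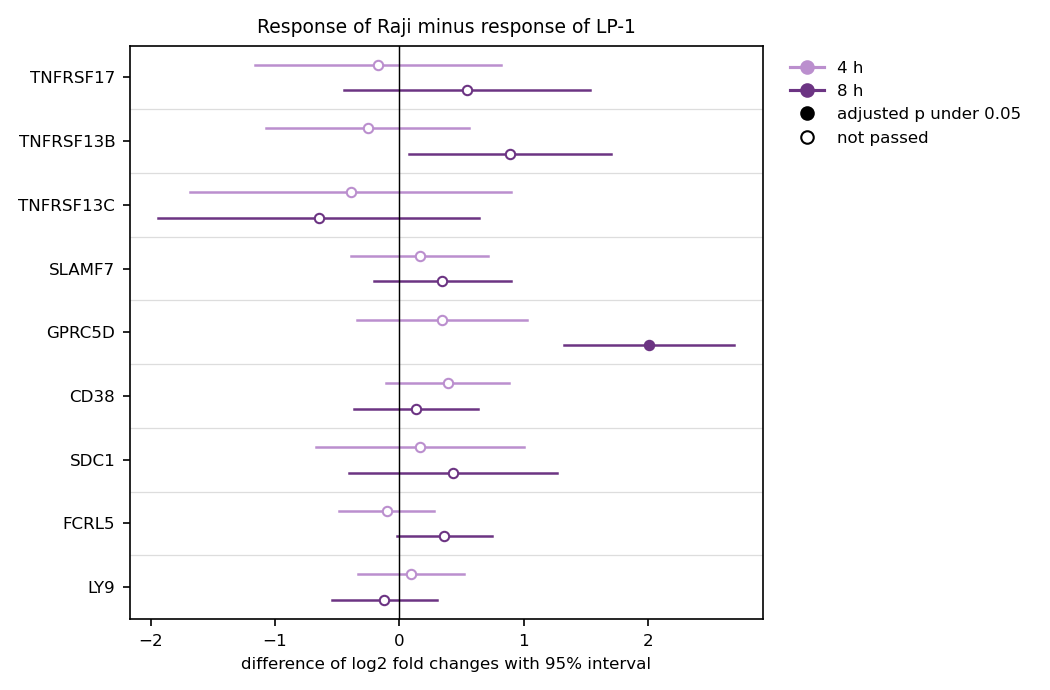
Response of Raji minus response of LP-1 (BET inhibitor over inactive enantiomer in each line) at 4 and 8 h: points are differences of log2 fold changes, bars 95% intervals, filled where the adjusted p was under 0.05. GPRC5D at 8 h lies at 2.01, and the other 17 points are open, from -0.65 to 0.89.

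Genes that act with the receptors were taken as lists. Each count below, and those of the SLAM and Fc receptor-like lists above, is to be read against the share of all probe sets called. In LP-1 at 4 and 8 h 1.90% and 1.97% were lower and 0.377% and 3.76% higher. In Raji at 4 and 8 h 0.341% and 1.05% were lower and 1.44% and 0.827% higher. No list was tested against these shares. Of 12 measured ligands, signalling and shedding genes of the BCMA family, none passed in LP-1 at 4 h or in Raji at 8 h; 1 was higher in LP-1 at 8 h and 1 lower in Raji at 4 h (medians -0.33, 0.026, -0.11 and 0.043 for LP-1 at 4 and 8 h and Raji at 4 and 8 h). They were the signal adaptor genes TRAF6 (0.66 ± 0.16, adjusted p = 0.0294) and TRAF5 (-0.74 ± 0.17, adjusted p = 0.0475). Of 14 measured genes (receptors related to CD27, its ligand CD70 and the gene SIVA1), none passed by limma in any of the 4 comparisons (medians -0.00091, 0.035, -0.085 and -0.057). In the CD38 pathway 1 of 9 was lower in LP-1 at 8 h and 1 higher in Raji at 4 h (medians 0.14, 0.081, 0.18 and 0.087). PECAM1, which encodes the CD38 ligand CD31, stood at 5.20 and 4.80 with the inhibitor in LP-1 at 8 h, against 7.57 and 7.30 (-2.44 ± 0.27, adjusted p = 0.000276), a call that held without each array (highest adjusted p 0.00513). PECAM1, IL6R and CIITA were also lower with the inactive form than in untreated LP-1 at 8 h. ENPP1, an ectoenzyme that splits nucleotides, rose in Raji at 4 h (1.10 ± 0.22, adjusted p = 0.0287). The calls of TRAF6, TRAF5 and ENPP1 were lost without at least 3 of the 4 arrays compared (highest adjusted p 0.216, 0.214 and 0.21).

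Of 18 measured genes of syndecans and heparan sulfate, the sugar chain that syndecan-1 carries, 1 was lower in LP-1 at 4 h, 2 were higher and 1 lower at 8 h, 2 were higher in Raji at 4 h, and 1 was higher and 1 lower at 8 h (medians -0.082, 0.059, -0.057 and -0.042). GLCE, an epimerase that modifies heparan sulfate, rose at 8 h in LP-1 (1.81 ± 0.19, adjusted p = 0.000248) and at 4 h in Raji (1.36 ± 0.19, adjusted p = 0.00573). SDCBP, which encodes the syndecan-binding protein syntenin, rose at 8 h in LP-1 (1.38 ± 0.15, adjusted p = 0.000249) and in Raji (0.90 ± 0.15, adjusted p = 0.0104). NDST1, a sulfotransferase of the chain, fell by 0.77 ± 0.12 and 0.73 ± 0.12 in LP-1 and Raji at 8 h (adjusted p = 0.00428 and 0.0125) and by 0.60 in LP-1 at 4 h. EXT1, a polymerase of the chain, rose in Raji at 4 h (0.83 ± 0.14, adjusted p = 0.0124). The 3 LP-1 calls at 8 h held without each array, and the calls of these genes in Raji and of NDST1 in LP-1 at 4 h were lost without at least 1 array (highest adjusted p 0.0803 for GLCE, 0.0958 for SDCBP, 0.0845 and 0.229 for NDST1 and 0.0902 for EXT1).

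Of 31 measured other surface antigens tested as targets in B cell cancers or myeloma, 2 were lower in LP-1 at 4 h, 3 at 8 h, none in Raji at 4 h and 3 at 8 h, and none was higher (medians -0.19, -0.026, -0.083 and -0.14). IL6ST, the signal chain of the interleukin-6 receptor on which many myeloma cells rely, fell in LP-1 at 4 h (-1.01 ± 0.20, adjusted p = 0.0202), as did the adaptor LAX1 (-1.35 ± 0.27, adjusted p = 0.0216). CD28, a costimulatory receptor (-1.21 ± 0.19, adjusted p = 0.00362), and IL6R (-0.64 ± 0.15, adjusted p = 0.0272) fell at 8 h. In Raji at 8 h CD80, a ligand of CD28 (-0.93 ± 0.21), SLC3A2, a chain of amino acid transporters (-0.66 ± 0.14), and CD55, a complement inhibitor (-0.52 ± 0.12), fell (adjusted p = 0.041, 0.0327 and 0.0441). The call of CD28 held without each array (highest adjusted p 0.0319) but not with LP-1 fitted alone (0.0549), and the others were lost without at least 3 of the 4 arrays compared (highest adjusted p 0.133 to 0.253).

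Of 15 plasma cell regulators and secretory markers 2, 3, 2 and 2 were lower in LP-1 at 4 and 8 h and in Raji at 4 and 8 h, and none was higher (medians -0.22, -0.22, -0.12 and -0.24). IKZF3, a transcription factor of late B cells, stood at 6.95 and 6.24 with the inhibitor in LP-1 at 8 h, against 7.90 and 8.24 (-1.47 ± 0.22, adjusted p = 0.00245). PRDM1, which drives plasma cell differentiation, fell in Raji by 1.29 ± 0.15 and 1.43 ± 0.15 at 4 and 8 h (adjusted p = 0.00205 and 0.000894). FKBP11, a secretory pathway gene, fell by 1.04 ± 0.11 in Raji at 8 h (adjusted p = 0.000975). These 4 calls held without each array in turn (highest adjusted p 0.0312), and that of PRDM1 at 4 h was lost with Raji fitted alone (0.0591). Of 16 B cell regulators, 3 were lower in LP-1 at 4 h, 2 lower and 1 higher at 8 h, and 2 and 3 lower in Raji (medians -0.070, -0.18, -0.19 and -0.24). CIITA, the activator of HLA class II genes, fell by 1.01 at 4 h and 1.35 at 8 h in LP-1 (adjusted p = 0.000538 and 3.42e-05), and in Raji by 0.50 at 4 h and 0.62 at 8 h (adjusted p = 0.0314 and 0.0103). Of all the genes on these lists, PECAM1 and PRDM1 passed for the difference in response between the lines at 8 h. Raji minus LP-1 was positive for PECAM1, which fell in LP-1 at 8 h and did not pass in Raji. The difference was negative for PRDM1, which fell in Raji and did not pass in LP-1. How far these differences depend on single arrays was not tested. The CIITA calls held without each array in LP-1 (highest adjusted p 0.0149) and not in Raji (0.22 and 0.0904).

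For the called genes, the genes with the most similar course were named by the smallest root-mean-square difference of log2 values over the 10 arrays of 1 line, each gene centred on its untreated mean. The arrays share their groups and the fit, and the measure is a description. In LP-1 TNFRSF17 lay closest to ALKBH8, a tRNA-modifying enzyme (0.16), EDNRB, an endothelin receptor (0.19), and SLC16A14, of the monocarboxylate transporter family (0.33), against a median of 1.52 over all genes. Their changes at 8 h were -2.03, -2.15 and -1.95. SLAMF7 in LP-1 lay closest to SELPLG, the ligand of P-selectin (0.16), TRAT1, a T cell receptor adaptor (0.18), and MLKL, an effector of necroptosis (0.19), with a median of 1.21 over all genes. These changed by -1.65, -1.44 and -1.97 at 8 h. TNFRSF13B in LP-1 lay closest to TMEM97, UCK2 and RCSD1 (0.16 each, median 0.64), which changed by -0.85, -0.83 and -0.88 at 8 h. For GPRC5D in Raji FCHO2, KLHL9 and ZFP36L1 came nearest (0.32, 0.34 and 0.37, against a median of 0.62), and none of these passed in Raji at 4 or 8 h.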

How the data were processed

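Log2 expression was measured on 20 exon arrays (10 groups of 2). The deposited log2 values were made by the authors with RMA in Affymetrix Expression Console, with build hg19 named, per the submitters' processing notes; versions are not given in the sources used here. They were used as deposited, with no filter. Of 22011 probe sets, 14432 carry 1 symbol, 2408 several and 5171 none in the platform table; 14404 of the first matched RefSeq (GRCh38.p14) by Entrez gene identifier, used for names and gene order. Where a gene had several single-symbol probe sets, that with the highest mean was taken.

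A model with 1 mean per group was fitted with limma 3.58.1 in R 4.3.3 (10 residual and 2.59 prior degrees of freedom), and 13 two-sided comparisons were tested, p-values being adjusted over every probe set by the Benjamini-Hochberg method. The script was tested on simulated data. Members, lists and rules were chosen with earlier results of these data known; 136 of 156 list genes were measured. Up to 4 called genes per list and line were eligible to be named, plus the 3 nearest genes of each called member. The number of arrays limits the precision, and p-values measure the spread between replicates pooled over groups. Alternatives were other scalings, a filter on dim probe sets, a variance trend, single-line fits, a replicate block and leaving out each array.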

Additional observations from a re-analysis of the deposited data

Results flagged for a closer look

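The response of GPRC5D to the BET inhibitor at 8 h differed between the lines by a test of the difference itself: it was 1.06 in Raji and -0.95 in LP-1, a difference of 2.01 (95% interval 1.32 to 2.69, adjusted p = 0.0242), with inhibitor arrays above both inactive arrays in Raji and below both in LP-1. This difference ranged from 1.81 to 2.21 without each array in turn and no longer passed in 6 of 8 such fits (highest adjusted p 0.11). The same gene in Raji had inhibitor arrays below the inactive arrays at 4 h and above them at 8 h, a difference between the times of 1.69 (95% interval 1.00 to 2.37), which did not pass (adjusted p = 0.177). In Raji at 4 h the nearest arrays were 3.78 with the inhibitor and 3.82 with the inactive form.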

How the results depend on the processing

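Of the 9 genes, 2 passed in LP-1 at 4 h, but 0 after quantile normalization, 0 with each array centred on its median, 1 with LP-1 fitted alone and 0 to 2 without each array in turn. The 4 of LP-1 at 8 h became 2 to 3 without each array. In Raji the 1 at 4 h became 0 with Raji fitted alone and 0 to 1 without each array, and the 3 at 8 h became 2 with the replicate block, 0 with Raji fitted alone and 1 to 2 without each array. The 1 difference between lines at 8 h became 0 to 1 without each array. For the untreated lines 5 of 6 calls held without each array, and 7 genes passed with centred arrays. No call of a member or named list gene changed direction in any setting.

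Replicate numbers did not pair the samples: differences between replicates correlated by -0.035 to 0.12 between groups of LP-1 and by -0.16 to 0.051 in Raji. With the replicate block 1 gene passed in LP-1 at 4 h (TNFRSF17), and GPRC5D was lost in LP-1 at 4 h (adjusted p = 0.0652), in Raji at 8 h (0.0554) and for the difference between lines, where 0 passed (0.057); no other member call changed. It also ended the calls of TRAF5, SLAMF1 and CIITA in Raji at 4 h, of CD80, CD55 and PAX5 in Raji at 8 h and of BCL11A in LP-1 at 4 h. Centring shifted the median of all probe sets by 0.13 between the untreated lines, by 0.11 for the inactive form over untreated in LP-1 at 8 h, by -0.11 for the difference between lines at 4 h and by -0.15 for that between times in LP-1. With each line fitted alone, 76 and 347 probe sets passed in LP-1 at 4 and 8 h and 49 and 90 in Raji, against 502, 1262, 391 and 414; without each array in turn they ranged from 64 to 971, 485 to 985, 27 to 154 and 100 to 145. The 111 probe sets called for the inactive form over untreated in LP-1 at 8 h became 19 after quantile normalization, 34 with centring, 51 with the block, 1 with LP-1 alone and 9 to 24 without each array. The 25 called for the difference between lines at 4 h became 16, 4 and 7 with the first 3 of these settings, 104 without the dim probe sets and 46 with a variance trend, and the 54 at 8 h became 34 with the block. Without each array these differences ranged from 0 to 484 and from 17 to 131 probe sets, each highest without BET inhibitor replicate 2 of LP-1 at that time; that at 4 h was lowest without inactive replicate 2 of LP-1, and that at 8 h without BET inhibitor replicate 2 of Raji. FCRL5 was among the 7337 dimmest probe sets left out, and so were SLAMF1 and CD28. HEXIM1 in LP-1 at 4 h was lost with LP-1 fitted alone (adjusted p = 0.0578). Of 48 calls of named list genes, 13 held without each array; ICAM1, called lower in LP-1 at 8 h, lay outside the naming rule and was not run.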
